A study of Mus musculus with 7 samples.

Results

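White adipose tissue differs by where it lies in the body, and the comparison described here sets the visceral (VAT) library against the subcutaneous (SCAT) library, gene by gene. Both come from wild-type (wt) mice labelled C57BL/6, named C57BL/6N in the study's text, that were aged 36 weeks on the diet labelled NCD, and so do the other 5 libraries of the series, which were made from brown adipose tissue (BAT), liver, kidney, cortex and skeletal muscle. All groups share strain, genotype, age and diet, none carries a transgene or a drug, and each tissue has 1 library. The labels give neither the number of animals behind a library nor the pad from which the visceral fat was cut. Values are fragments per kilobase of transcript, relative to the mapped fragments of the library (FPKM), a level scaled for transcript length and library size. Members were the named genes of the deposited table in its rows for the VAT and SCAT pair. There were 50268 of them among 94339 loci, and 14577 reached at least 1 FPKM in either depot. With 1 library a depot there is no replicate error, so no p-value is given, the spread between animals is unknown, and every difference is one between these 2 libraries.

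Adipocytes store triglyceride in a lipid droplet, build fatty acids from glucose, release them on demand and secrete hormones such as leptin and adiponectin. Visceral pads lie inside the body cavity under a sheet of mesothelium, whereas subcutaneous pads lie under the skin and often enclose lymph nodes. The pads arise from separate embryonic mesoderm, and their stromal cells keep the transcription factors of that origin in adult life. A white pad also holds vessels, fibroblasts, progenitors and immune cells, so a tissue library is a mixture. Fewer cells of a type and less RNA per cell cannot be told apart in such a library.

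A gene was counted as higher in a depot when it had at least 1 FPKM there and a log2 ratio of FPKM + 0.1 of at least 1 over the other depot, which is 2-fold. Log2 ratios below are VAT over SCAT, so positive values are higher in VAT, and the added 0.1 understates the change of low genes. By this rule 2166 genes (14.9% of the expressed genes) were higher in VAT and 1593 (10.9%) were higher in SCAT, and the remaining 74.2% lay within 2-fold. The median log2 ratio of all expressed genes was 0.11. These shares are the background for each gene list below, in which a low gene can pass the minimum only through the depot where it is high. VAT held 57.6% of the calls, which became 39.9% when FPKM was scaled to the same sum over protein-coding genes, a step that moved the median of all expressed genes to -0.19, and 15.4% when ratios were centred on the adipocyte identity list.

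The 2 marker genes put both libraries among fat. Adipoq, which encodes adiponectin, was 330.2 FPKM in VAT and 109.6 in SCAT, with 258 in BAT and 14.1 or less in the other 4 tissues. Lep, which encodes leptin, was 51.6 FPKM in VAT and 26.6 in SCAT, 3.65 in muscle, 2.02 in BAT and 0.141 or less in cortex, kidney and liver. Both markers were the higher in VAT, with log2 ratios of 1.59 and 0.95. Their promoters are shown because these genes check the fat label of both libraries. Of 6 genes looked up among RefSeq promoters, 4 matched, and the other two, Tbx15 and Wt1, are only named. The RefSeq sequence (GRCm38.p6) runs from 250 bases before to 50 after the start, 5′ to 3′ on the gene's own strand, with the letters CCAAT, the GC box GGGCGG and the TATA box TATAAA on either strand in capitals. CCAAT is held by 37.4% of the 32851 promoters of this length, GGGCGG by 35.7% and TATAAA by 13.6%.
Adipoq, chr16:23146286-23146585, + strand: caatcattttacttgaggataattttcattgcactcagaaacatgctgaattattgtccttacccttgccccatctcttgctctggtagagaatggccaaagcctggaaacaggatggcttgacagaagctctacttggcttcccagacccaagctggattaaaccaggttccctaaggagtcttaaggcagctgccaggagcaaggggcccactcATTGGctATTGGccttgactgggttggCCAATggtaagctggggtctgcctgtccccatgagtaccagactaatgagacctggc
Lep, chr6:29059971-29060270, + strand: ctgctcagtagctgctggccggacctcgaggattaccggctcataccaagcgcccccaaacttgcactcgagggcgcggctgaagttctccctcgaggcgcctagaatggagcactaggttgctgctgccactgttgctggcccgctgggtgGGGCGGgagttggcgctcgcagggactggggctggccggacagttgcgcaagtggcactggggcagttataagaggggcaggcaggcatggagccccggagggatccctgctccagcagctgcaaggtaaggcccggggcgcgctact
The Adipoq window held 3 CCAAT matches and no CG dinucleotide, and the Lep window held 1 GGGCGG match and 19 CG dinucleotides, against a median of 7 over all promoters. A match describes letters and no bound site.

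The libraries also stood apart in genes of tissues other than fat, and these values bear on every result below. In SCAT, 20 of 20 expressed B lymphocyte genes, 24 of 25 T lymphocyte genes and 21 of 22 pancreatic acinar genes were higher than in VAT. In VAT, 23 of 23 epididymal genes, 9 of 11 genes of testis and sperm, 17 of 18 mesothelial genes and 12 of 12 hepatocyte genes were higher than in SCAT. Leaving out every gene of the lymphocyte, pancreas, epididymis, mesothelium and other-tissue lists left 2081 genes higher in VAT and 1517 higher in SCAT. These lists hold only 245 chosen genes, so the counts left still include unlisted genes of such tissues. Among them were 111 immunoglobulin variable segments higher in SCAT and 1 higher in VAT. The 14 housekeeping genes all lay within 2-fold, with a median log2 ratio of -0.04. Xist was 0.0176 FPKM or less in both depots, while Ddx3y on the Y chromosome was 17.1 FPKM in VAT and 17.5 in SCAT.

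**Figure D1:**
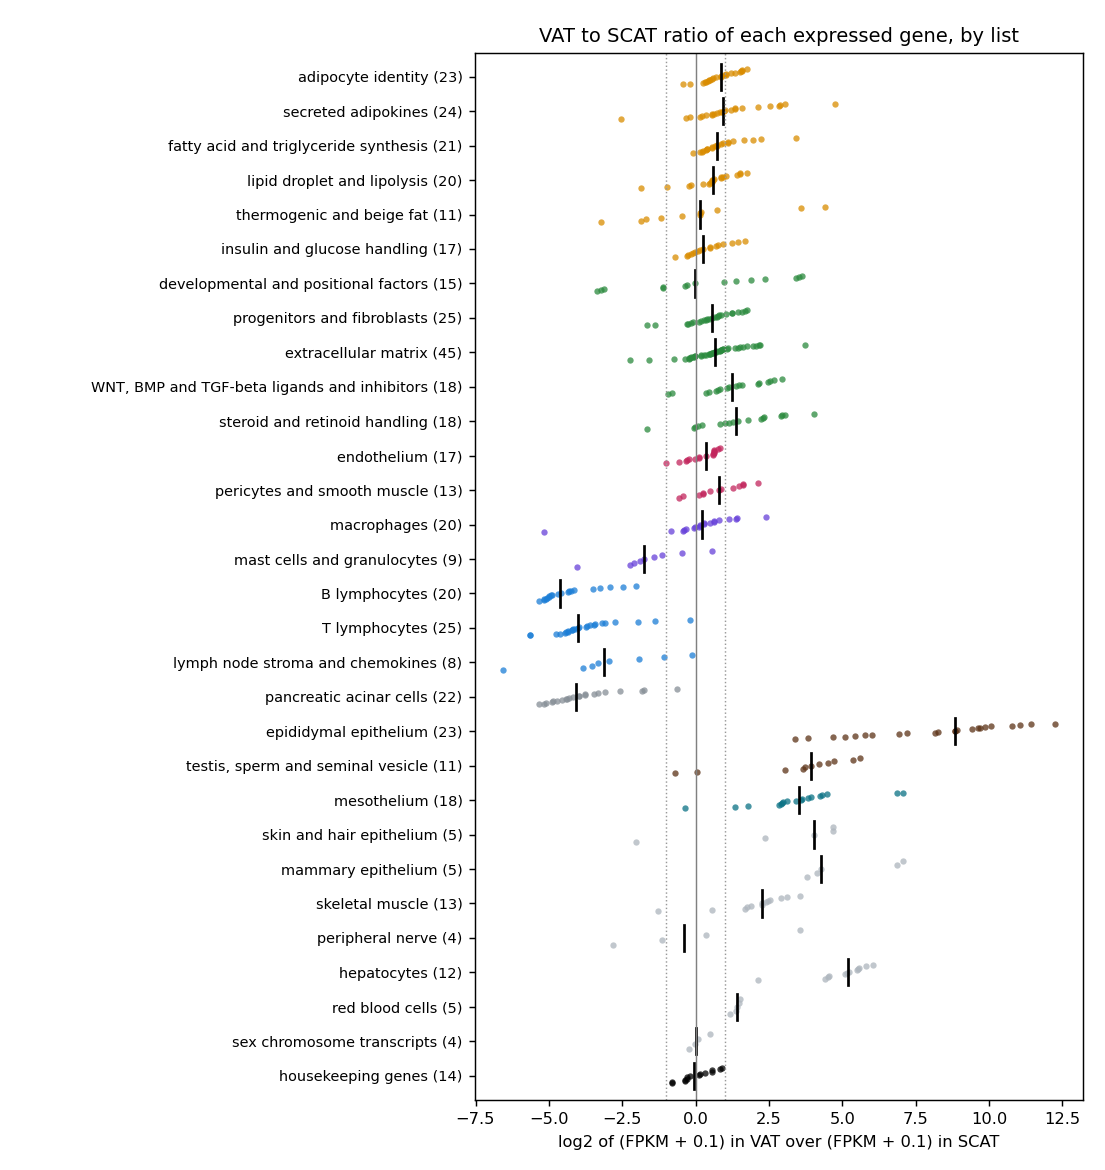
Each point is 1 expressed gene and its position on the x axis is its log2 ratio of FPKM + 0.1 in VAT over SCAT, by list, with the number of expressed genes in brackets. The black bar is the list's median and dotted lines mark 2-fold: the 23 epididymal genes lie right of the 2-fold line, the 20 B lymphocyte genes lie left of it, and the medians of the 6 adipocyte lists lie between 0 and the 2-fold line in VAT's direction, a side that turns for some of them when ratios are centred on the adipocyte identity list.

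Most genes that define the adipocyte had the higher value in VAT. Of 23 expressed members of the adipocyte identity list, 9 were at least 2-fold higher in VAT (39.1%, against a background of 14.9%) and 0 in SCAT, and 21 had a positive log2 ratio, with a median of 0.86. Scaled to equal protein-coding sums, 6 of 23 were higher in VAT, with a median of 0.56 and a background of 10.6%. Centred on the median of genes at 1 FPKM or more in both depots, 7 were, with a median of 0.77. The largest ratio was that of Adrb3, the adipocyte's own beta-adrenergic receptor, with 11.3 FPKM in VAT and 3.26 in SCAT (log2 ratio 1.77). Lpl, the lipase that takes up fat from circulating lipoproteins, was 301 FPKM in VAT and 102 in SCAT (1.56), and Cd36, which carries fatty acids into the cell, was 1226 in VAT and 602 in SCAT (1.02). Cidec, a droplet protein that lets lipid droplets grow, was 587 FPKM in VAT and 204 in SCAT (1.53). The most abundant member, the fatty acid carrier Fabp4, was 5143 FPKM in VAT and 2829.8 in SCAT, which is within 2-fold (0.86). Pparg, the master regulator of fat cell formation, was close to equal at 49.8 FPKM in VAT and 41.4 in SCAT (0.27), as were Plin1, the coat protein of the droplet, at 102 in VAT and 74.8 in SCAT (0.45) and Acvr1c, an activin receptor of fat cells, at 20.3 in VAT and 16.2 in SCAT (0.32). Cfd, which encodes adipsin, and Gpd1, which makes glycerol phosphate, went the other way within 2-fold, with 1963 FPKM in VAT and 2241 in SCAT and 15.4 FPKM in VAT and 21 in SCAT. The adipocyte genes thus did not share 1 ratio, and ranged from -0.44 to 1.77 on the log2 scale. Cebpa and Cebpb, both regulators of adipogenesis, stayed under 1 FPKM in both depots and were not counted. Cebpb, annotated with 1 exon, was at most 0.928 FPKM in all 7 libraries. Over the table, 14.5% of 1265 protein-coding genes of 1 exon reached 1 FPKM in either depot, against 59% of 20107 with several exons.

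**Figure D2:**
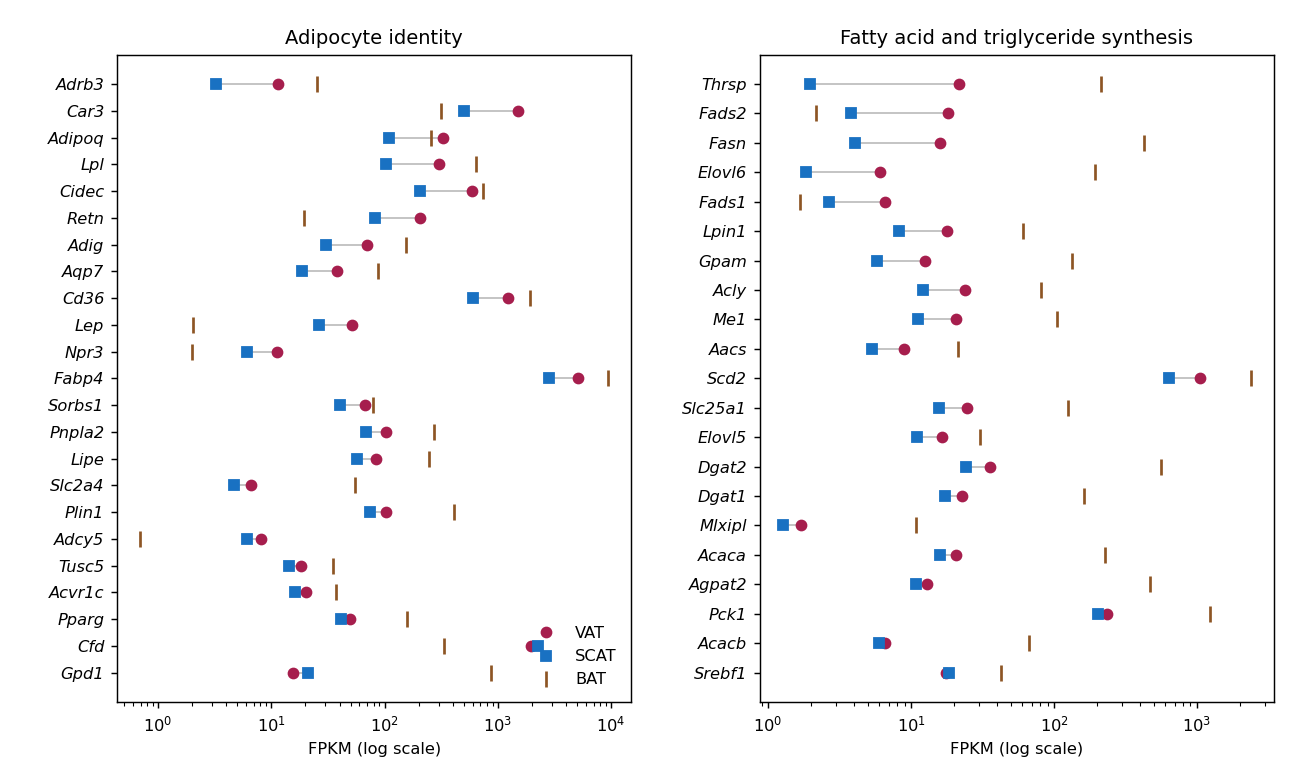
FPKM on a log axis of the expressed adipocyte identity genes (left) and of the genes of fatty acid and triglyceride synthesis (right), 1 library a depot, with VAT as circles, SCAT as squares and BAT as bars. VAT lies right of SCAT for 21 of 23 genes on the left and 20 of 21 on the right, and the synthesis genes lie at their highest of the 3 fats in BAT apart from Fads1 and Fads2.

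Secreted adipokines had a wider range. Of 24 expressed members 11 were higher in VAT, 1 in SCAT, and the median log2 ratio was 0.92. After centring on the adipocyte identity list these became 6, 3 and 0.06. Lcn2, the iron-siderophore binding lipocalin, differed most, with 14.7 FPKM in VAT and 0.454 in SCAT (4.74). It was 4.58 FPKM in BAT and 7.39 in liver. What cells other than adipocytes add to its VAT value, those of the epididymis described below included, was not tested. Rbp4, the plasma retinol carrier, was 28.3 FPKM in VAT and 3.32 in SCAT (3.05), and Agt, the precursor of angiotensin, was 7.05 in VAT and 0.881 in SCAT (2.87). The acute-phase genes Orm1, Saa3 and Hp were 84.8, 4.78 and 108 FPKM in VAT against 14.4, 0.587 and 46.1 in SCAT. These 5 plasma protein genes are also liver genes, with 618 FPKM for Rbp4, 58.3 for Agt, 349 for Orm1, 30.4 for Saa3 and 1338 for Hp in the liver library. Sfrp5, a secreted WNT inhibitor of fat cells, was 36.8 FPKM in VAT and 8.35 in SCAT (2.12), with 4.27 in muscle and less in the other 4 libraries. Retn, which encodes resistin, was 206 FPKM in VAT and 82 in SCAT (1.33). Angptl4, an inhibitor of Lpl, was 48.9 FPKM in VAT and 31.7 in SCAT (0.62) and Vegfa, the vessel growth factor, was 24.6 in VAT and 22.3 in SCAT (0.14), both within 2-fold. Tnf, the inflammatory cytokine, was the member higher in SCAT, at 0.263 in VAT and 1.99 in SCAT (-2.53), a call lost when only loci on the gene's annotated strand were used (0.0703 and 0.459 FPKM), a strand inferred here from how the table sorts its loci, and Il6 stayed under 1 FPKM in both. The omentin gene Itln1 was listed at 0 in both depots.

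Genes for making fatty acids and triglyceride included several that were higher in VAT. Of 21 expressed members 7 were higher in VAT and 0 in SCAT, with a median of 0.71 that became -0.15, with 3 and 0 called, after centring on the adipocyte identity list. Thrsp, a lipogenic nuclear protein, was 21.8 FPKM in VAT and 1.95 in SCAT (3.41). Fasn, the fatty acid synthase, was 16.1 FPKM in VAT and 4.07 in SCAT (1.96), and Elovl6, which lengthens its product, was 6.03 in VAT and 1.83 in SCAT (1.67). Fads2 and Fads1, the desaturases of polyunsaturated fatty acids, were 18.1 and 6.55 FPKM in VAT against 3.78 and 2.67 in SCAT, and unlike Fasn they were low in BAT (2.15 and 1.67, with 427 for Fasn). Other members lay within 2-fold. Acaca, which makes malonyl-CoA, was 20.5 FPKM in VAT and 16 in SCAT (0.35), Dgat1, which closes the triglyceride, was 22.8 in VAT and 17.3 in SCAT (0.40), and the lipogenic regulator Srebf1 was 17.4 in VAT and 18.3 in SCAT (-0.07). Gpam and Lpin1, which act earlier in triglyceride assembly, were just past 2-fold with log2 ratios of 1.10 and 1.11. Scd1, the main desaturase of adipose tissue, was listed at 0 in VAT, SCAT and BAT but at 464 FPKM in liver, with a low-data status in the depot comparison, so its depot levels are unknown here, and its relative Scd2 was 1049 FPKM in VAT and 639 in SCAT (0.71).

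Lipid droplet and lipolysis genes were mostly within 2-fold. Of 20 expressed members 5 were higher in VAT and 1 in SCAT (Cidea, described with the thermogenic genes), with a median of 0.59. After centring on the adipocyte identity list 0 were higher in VAT and 4 in SCAT (median -0.28). Before centring, those higher in VAT were Adrb3, Cidec, the monoglyceride lipase Mgll with 108 FPKM in VAT and 37.5 in SCAT (1.52), Hilpda with 3.05 in VAT and 1.08 in SCAT (1.41) and the glycerol channel Aqp7 (1.03). The main lipases were closer, with 104 FPKM in VAT and 68.4 in SCAT for Pnpla2 (0.60) and 84.3 in VAT and 56.6 in SCAT for hormone-sensitive lipase, Lipe (0.57). G0s2, the inhibitor of Pnpla2, was 30.6 FPKM in VAT and 35.6 in SCAT (-0.22).

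Thermogenic genes divided, and the uncoupling protein itself was near absent from both white depots. Ucp1 was 0.309 FPKM in VAT and 0.324 in SCAT, against 6552 in BAT. Of 11 expressed members 2 were higher in VAT and 4 in SCAT (median 0.14, but -0.15 when scaled to equal protein-coding sums and -0.16 with summed loci or loci on the annotated strand), and 2 and 5 (median -0.72) after centring on the adipocyte identity list. Cidea, a droplet protein of brown and beige adipocytes, was 0.786 FPKM in VAT and 3.1 in SCAT (-1.85) and 832 in BAT. Cox8b, a cytochrome oxidase subunit of brown fat and muscle, was 61.6 FPKM in VAT and 140.1 in SCAT (-1.18) and 11478 in BAT. Also higher in SCAT were Lhx8 (0.02 in VAT and 1.03 in SCAT) and Tnfrsf9 (1.22 in VAT and 4.18 in SCAT), which is listed as a beige fat marker and is also a receptor of activated T cells, in a library where 24 of 25 T lymphocyte genes were higher. Tbx1 and Tmem26, beige markers in common use, were under 1 FPKM in both depots, with SCAT values of 0.802 and 0.711 FPKM against 0.112 and 0.0738 in VAT. Higher in VAT were Gk, the glycerol kinase, with 24.8 FPKM in VAT and 1.97 in SCAT (3.59), and Slc27a2, a fatty acid transporter and acyl-CoA synthetase, with 6.09 in VAT and 0.189 in SCAT (4.42). In the liver library Slc27a2 was 941 FPKM and Gk 156, and hepatocyte genes in VAT are described below. The part of liver RNA in these 2 values was not tested. Ppargc1a and Prdm16 stayed under 1 FPKM in both depots, and Cpt1b, whose locus also carries Chkb, was 9.95 FPKM in VAT and 13.7 in SCAT.

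Insulin signalling and glucose genes were mostly level, with 3 of 17 higher in VAT and 0 in SCAT (median 0.25, -0.04 when scaled to equal protein-coding sums), but 0 and 4 (median -0.61) after centring on the adipocyte identity list. Insr, the insulin receptor, was 7.16 FPKM in VAT and 6.44 in SCAT (0.15), the kinase Akt2 was 33 in VAT and 35.1 in SCAT (-0.09), and the insulin-responsive glucose transporter Slc2a4 was 6.6 in VAT and 4.69 in SCAT (0.48). The members past 2-fold were the lactate dehydrogenase Ldhb (1.69), the signalling adaptor Grb10 (1.44) and the hexokinase Hk2 (1.24), of which Hk2 reached only 2.16 FPKM. Irs1 and Irs2, the docking proteins of the receptor, were under 1 FPKM in both depots.

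Developmental and positional factors, a list of transcription factors that also holds other genes such as the glypican Gpc4, differed in both directions, mostly at low FPKM. Of 36 listed, 15 were expressed, and 6 were higher in VAT and 5 in SCAT. Each of those called reached 1 FPKM only in the depot where it was higher, so it entered the count through that depot, and the counts are not read against the background. With loci on the annotated strand only, 9 were expressed, 3 higher in VAT and 3 in SCAT, with a median of -0.30, with a pseudocount of 1 the counts were 5 and 2, and after centring on the adipocyte identity list 5 and 7 (median -0.88). The median as counted was -0.01, and 0.01 with summed loci, and the ratios ran from -3.37 to 3.63. On the subcutaneous side, Tbx15 (chr3:99240381-99354259, GRCm38), a T-box factor of trunk and limb mesoderm, was 0.0943 FPKM in VAT and 1.61 in SCAT (-3.14). Shox2 (chr3:66971727-66981771), a homeobox factor of the limb, was 0.0243 FPKM in VAT and 1.18 in SCAT (-3.37), and Lhx8, which is also on the thermogenic list, was 0.02 in VAT and 1.03 in SCAT (-3.23). Hoxa9 and Hoxa10 share 1 locus in the table with 0.709 FPKM in VAT and 1.64 in SCAT (-1.10), and that call was lost on the annotated strand. The 2 names are 1 measurement, but both are included in the counts given for this list. En1 and Tbx5 were under 1 FPKM, with 0.423 and 0.251 FPKM in SCAT against 0.0217 and 0.0307 in VAT. All 3 of Tbx15, Shox2 and Lhx8 were also found in BAT, at 2.28, 0.467 and 0.736 FPKM, and Tbx15 was far higher in muscle (55.9).

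On the visceral side, Wt1 (chr2:105126529-105173616), a zinc finger factor of the coelomic lining, was 1.82 FPKM in VAT and 0.0553 in SCAT (3.63). Tcf21 (chr10:22817281-22820174), a basic helix-loop-helix factor of visceral mesoderm, was 1.12 FPKM in VAT and 0.00495 in SCAT (3.54), and Bnc1 was 1.2 in VAT and 0.022 in SCAT (3.41). All 3 were listed at 0 in BAT. On the annotated strand, Wt1 kept its value, whereas Tcf21 fell to 0.193 FPKM in VAT, listed at 0 in SCAT, and Bnc1 to 0.145 and 0.00355, so neither reached 1 FPKM. Hoxd8 was 5.1 FPKM in VAT and 0.912 in SCAT (2.36), the glypican Gpc4 was 3.19 in VAT and 0.785 in SCAT (1.89), and Osr1, a factor of intermediate and lateral mesoderm, was 1.67 in VAT and 0.573 in SCAT (1.39), with 0.837 and 0.275 on the annotated strand. Wt1 and Bnc1 are also members of the mesothelium list, of which 17 of 18 expressed genes were higher in VAT, and their summed level with the other members was 96.1 FPKM in VAT and 20.9 in SCAT. The part of mesothelial cells in the 2 values was not tested. Without both genes the list kept 4 members higher in VAT and 5 in SCAT of 13. Other members were within 2-fold or low. Hoxc8 was 1.4 FPKM in VAT and 0.666 in SCAT (0.97), Meox2 was 1.8 in VAT and 2.25 in SCAT (-0.31), and the mesenchymal factors Twist1 and Prrx1 had log2 ratios of -0.01 and -0.36. Hoxa5, Hoxc9 and Hoxc10 did not reach 1 FPKM in either depot.

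The promoters of Shox2 and Tcf21 are printed because these genes had large ratios in opposite directions, that of Tcf21 with the loss on its annotated strand given above, again from RefSeq (GRCm38.p6) with the same letters in capitals.
Shox2, chr3:66981722-66982021, - strand: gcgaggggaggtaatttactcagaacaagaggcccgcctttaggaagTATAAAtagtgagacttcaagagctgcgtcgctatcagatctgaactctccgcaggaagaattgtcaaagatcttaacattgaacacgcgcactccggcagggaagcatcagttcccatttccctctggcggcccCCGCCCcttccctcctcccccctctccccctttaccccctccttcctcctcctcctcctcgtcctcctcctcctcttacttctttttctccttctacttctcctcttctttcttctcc
Tcf21, chr10:22820094-22820393, - strand: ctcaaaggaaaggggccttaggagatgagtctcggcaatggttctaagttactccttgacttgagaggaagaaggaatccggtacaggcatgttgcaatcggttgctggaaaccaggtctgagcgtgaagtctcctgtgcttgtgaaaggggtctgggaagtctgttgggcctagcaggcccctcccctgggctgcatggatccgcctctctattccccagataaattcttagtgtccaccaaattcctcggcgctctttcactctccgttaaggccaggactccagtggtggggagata
The Shox2 window held 1 TATAAA match, 1 GGGCGG match on the other strand and 11 CG dinucleotides, and the Tcf21 window held none of the 3 motifs and 8 CG dinucleotides.

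**Figure D3:**
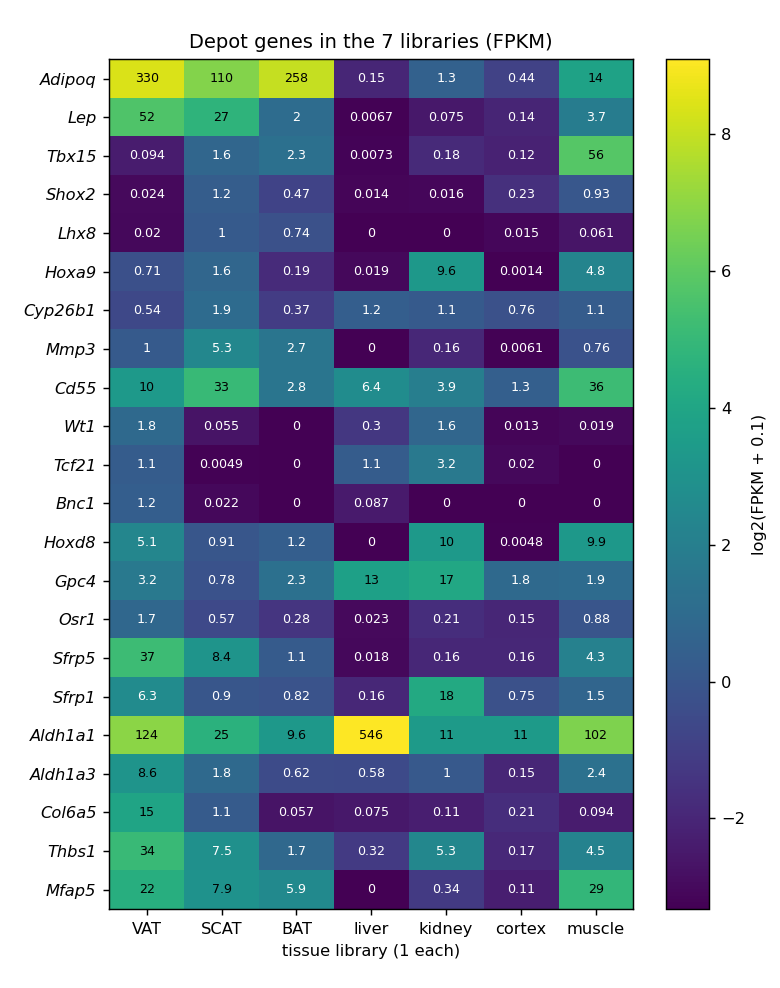
Colour and printed number give the FPKM of 22 named depot genes in each of the 7 libraries, with colour on the scale log2(FPKM + 0.1). Tbx15, Shox2 and Lhx8 are lowest among the fats in VAT, Wt1, Tcf21 and Bnc1 are above 1 FPKM in VAT and listed at 0 in BAT, and Col6a5 and Sfrp5 are highest of the 7 in VAT.

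Progenitor and fibroblast genes were mostly shared between the depots. Of 25 expressed members 7 were higher in VAT and 2 in SCAT (median 0.57), which became 0 and 5 with a median of -0.30 after centring on the adipocyte identity list. Pdgfra, the receptor that marks the fibro-adipogenic lineage, was 6.55 FPKM in VAT and 5.81 in SCAT (0.17), and Pi16 and Dpp4, markers of an early progenitor, had ratios of 0.37 and 0.11. Genes higher in VAT included Igfbp6, an IGF binding protein, with 17 FPKM in VAT and 5.03 in SCAT (1.73), Mfap5, a microfibril protein, with 21.6 in VAT and 7.91 in SCAT (1.44), and Lum, the proteoglycan lumican, with 25.8 in VAT and 10.8 in SCAT (1.25). Higher in SCAT were Cd55, which protects cells from complement, with 10.5 FPKM in VAT and 33.3 in SCAT (-1.66), and the adhesion receptor Icam1 with 1.76 in VAT and 4.71 in SCAT (-1.37). Blood cells carry Cd55 and Icam1 too, and the SCAT library had the summed lymphocyte levels given below. What share of either value came from leukocytes was not tested.

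Extracellular matrix genes were mostly within 2-fold, as were the main fibrillar collagens. Of 45 expressed genes 12 were higher in VAT and 2 in SCAT (median 0.66), which became 5 and 8 with a median of -0.20 after centring on the adipocyte identity list. Col6a5, a collagen VI chain, was 15.3 FPKM in VAT and 1.07 in SCAT (3.72), the other 5 libraries reaching no more than 0.213 FPKM, while Col6a1 and Col6a3 of the same family had ratios of 0.95 and -0.04. Thbs1, an adhesive glycoprotein that activates TGF-beta, was 34.2 FPKM in VAT and 7.53 in SCAT (2.17), Timp1, a metalloproteinase inhibitor, was 5.75 in VAT and 1.16 in SCAT (2.21) and the fibulin Fbln1 was 5.41 in VAT and 1.22 in SCAT (2.06). Col1a1 and Col3a1, the main fibrillar collagens, were 5.06 and 46.2 FPKM in VAT against 5.86 and 53.7 in SCAT, and Col1a2 failed in the depot comparison and was left out. Mmp3, a stromal metalloproteinase, was 1.04 FPKM in VAT and 5.26 in SCAT (-2.23), and Tnc, the matrix protein tenascin C, was 1.23 in VAT and 3.89 in SCAT (-1.59). These 2 were the matrix genes higher in SCAT.

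Secreted regulators of WNT, BMP and TGF-beta signalling were on the visceral side. Of 18 expressed members 11 were higher in VAT (61.1%) and 0 in SCAT, with a median of 1.25 that stayed positive at 0.39, with 6 and 2 called, after centring on the adipocyte identity list. With loci on the annotated strand only, 8 members were expressed and 5 were higher in VAT, with a median of 1.17, and with a pseudocount of 1 the count was 6 of 18. Inhibitors of WNT binding among them were Sfrp5, described above, Sfrp1 with 6.31 FPKM in VAT and 0.9 in SCAT (2.68) and Sfrp2 with 3.55 in VAT and 1.62 in SCAT (1.09). Chrdl1, which binds BMPs, was 26.9 FPKM in VAT and 12.3 in SCAT (1.13), whereas Grem1, a BMP inhibitor, was 1.98 in VAT and 3.5 in SCAT (-0.79). Among ligands, Inhba, the activin A subunit, was 1.3 FPKM in VAT and 0.155 in SCAT (2.45), Tgfb3 was 5.03 in VAT and 1.89 in SCAT (1.37) and Wnt5b was 1.26 in VAT and 0.204 in SCAT (2.16). On the annotated strand Sfrp1 was 0.403 FPKM in VAT, Inhba 0.0233 and Wnt5b 0.126, all under the minimum, and Sfrp2 was within 2-fold. Tgfb1 went the other way just short of 2-fold, at 2.09 FPKM in VAT and 4.14 in SCAT (-0.95). Rspo1, which amplifies WNT signals, was 3.78 FPKM in VAT and 0.409 in SCAT (2.93) and is also on the mesothelium list. Without it, 10 of 17 remained higher in VAT, with a median of 1.13.

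Steroid and retinoid handling genes were largely on the visceral side, with 12 of 18 expressed members higher in VAT (66.7%) and 1 in SCAT (median 1.37), and 7 and 1 with a median of 0.50 after centring on the adipocyte identity list. The 3 enzymes that make retinoic acid from retinal were all higher in VAT. Aldh1a1 was 124 FPKM in VAT and 24.6 in SCAT (2.33), Aldh1a3 was 8.6 in VAT and 1.77 in SCAT (2.22) and Aldh1a2 was 3.86 in VAT and 0.423 in SCAT (2.92). Cyp26b1, which breaks retinoic acid down, was the member higher in SCAT, with 0.545 FPKM in VAT and 1.91 in SCAT (-1.64), a call lost with a pseudocount of 1 and on the annotated strand (0.111 and 0.322 FPKM). Retinoic acid binding proteins Crabp2 (1.8 in VAT and 0.0149 in SCAT) and Crabp1 (1.17 in VAT and 0.066 in SCAT) were on the visceral side, though at low levels, and Crabp1 was 0.161 FPKM in VAT on the annotated strand. The oestrogen receptor Esr1 was higher in VAT too, with 6.24 FPKM in VAT and 2.52 in SCAT (1.28), but 1.00 and 0.621 on the annotated strand, which is within 2-fold, while the glucocorticoid receptor Nr3c1 (0.07) and Hsd11b1, which regenerates active glucocorticoid (0.20), were level. Aldh1a2 is on the mesothelium list as well. Aldh1a3, Crabp1 and Crabp2 are known in epithelia of the male tract, whose genes in VAT are given below, and the part of such RNA in their values was not tested.

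None of the 17 expressed endothelial genes was higher in VAT and 1 was higher in SCAT (median 0.34), which became 0 and 5 with a median of -0.52 after centring on the adipocyte identity list. Pecam1 and Cdh5, junction proteins of all endothelium, had ratios of -0.33 and 0.11, and Gpihbp1, which holds Lpl on capillaries, was 63.8 FPKM in VAT and 36.2 in SCAT (0.81). The gene higher in SCAT was Lyve1, of lymphatic vessels and some macrophages, with 7.02 FPKM in VAT and 14.3 in SCAT (-1.02), a call lost with a pseudocount of 1 (-0.93) and with loci summed (-0.97), and the lymphatic regulator Prox1 was 1.16 in VAT and 1.78 in SCAT (-0.57). Of 13 pericyte and smooth muscle genes 5 were higher in VAT and 0 in SCAT (median 0.80), which became 1 and 2 with a median of -0.06 after centring. Acta2, smooth muscle actin, was 126 FPKM in VAT and 41.3 in SCAT (1.60), Tagln was 28.5 in VAT and 9.21 in SCAT (1.62) and Cnn1 was 8.1 in VAT and 1.78 in SCAT (2.12), while the pericyte genes Rgs5 and Kcnj8 had ratios of 0.25 and 0.11. Muscle coats of the epididymis carry the same contractile genes, and their part was not tested.

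Macrophage genes had counts on both sides, with 4 of 20 higher in VAT and 1 in SCAT (median 0.22, -0.07 when scaled to equal protein-coding sums and -0.64 after centring on the adipocyte identity list, where 1 and 5 were called). Adgre1, which encodes F4/80, was 10.1 FPKM in VAT and 6.41 in SCAT (0.64), and Csf1r, the growth factor receptor, was 11.5 in VAT and 15.3 in SCAT (-0.41). The VAT members were Trem2, a lipid receptor of lipid-laden macrophages, with 2.52 FPKM in VAT and 0.393 in SCAT (2.41), Gpnmb with 10.9 in VAT and 4.08 in SCAT (1.39), Lgals3 (1.13) and Retnla, whose locus also carries Retnlb (1.42). Timd4, a receptor of resident macrophages for dying cells, was the 1 on the subcutaneous side and differed most of the list, with 0.369 FPKM in VAT and 16.6 in SCAT (-5.16). The 4 mast cell proteases listed were higher in SCAT, Tpsb2 included. Cpa3 was 3.41 FPKM in VAT and 15 in SCAT (-2.10), Cma1 was 6.85 in VAT and 25.9 in SCAT (-1.90) and Mcpt4 was 4.57 in VAT and 21.9 in SCAT (-2.23). In all, 7 of 9 mast cell and granulocyte genes were higher in SCAT and 0 in VAT (median -1.75, which turned to 0.96 when FPKM was scaled to the same sum over all named genes). The stem cell factor receptor Kit, also of mast cells, was 0.97 FPKM in VAT and 1.37 in SCAT and stayed within 2-fold.

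**Figure D4:**
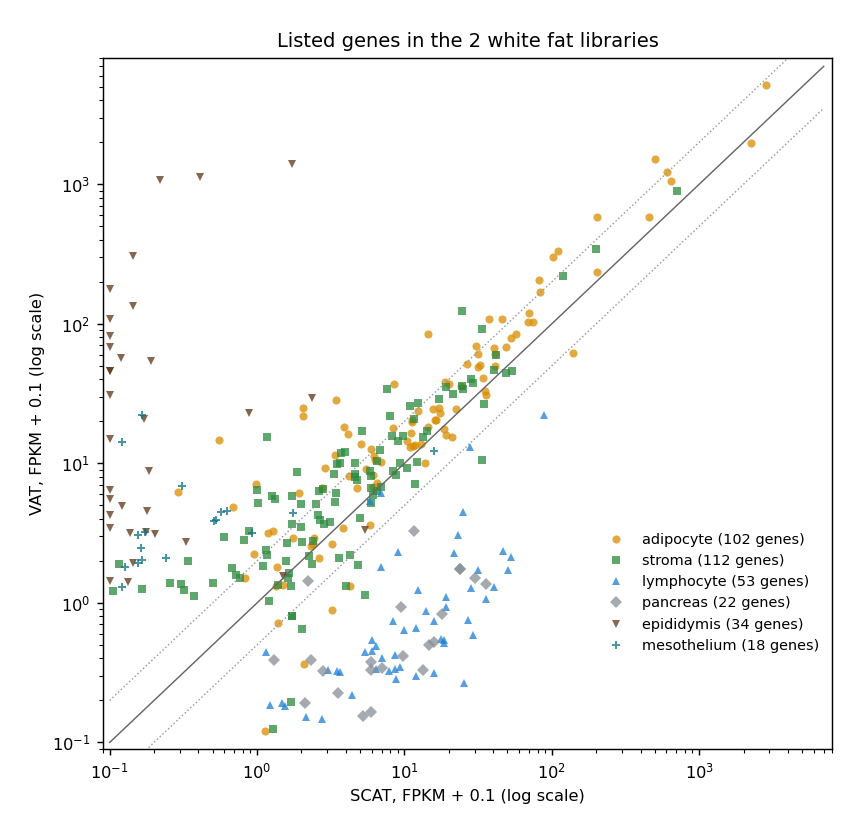
FPKM + 0.1 in VAT (y) against SCAT (x) on log axes for expressed genes of 6 classes of lists, with the diagonal solid and 2-fold dotted. Genes held by more than 1 class appear once, mesothelium first. Adipocyte and stroma genes lie around the diagonal and above it, with 32 of 102 and 47 of 120 expressed genes of these classes past 2-fold in VAT, lymphocyte and pancreas genes form a band below it, and epididymal genes form a column at the left edge.

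Lymphocyte genes set SCAT apart from VAT by a wider margin than any list of adipocytes or stroma. The 20 B lymphocyte genes summed to 42.3 FPKM in VAT, 491 in SCAT and 9.8 in BAT, and the 26 T lymphocyte genes to 20.6, 302 and 20.2. Ccr7, which guides cells into lymph nodes, was 0.118 FPKM in VAT and 4.3 in SCAT (-4.34), with 0.0332 and 0.917 on the annotated strand. Genes of lymph node follicles and venules were on the same side. Cxcl13, the chemokine of B cell follicles, was 1.14 FPKM in VAT and 12.3 in SCAT (-3.32), Cr2 was 0.837 in VAT and 19.1 in SCAT (-4.36) and Glycam1, an adhesion ligand of nodal high endothelial venules, was 0.168 in VAT and 25.4 in SCAT (-6.57). Ccl21a and Ccl19, chemokines of nodal stroma, were at most 0.0458 FPKM in SCAT. Jchain, which joins secreted antibody, was 21.9 FPKM in VAT and 89 in SCAT and had the smallest ratio of the B cell list (-2.01), and Tcf7 (-0.18) was the T cell gene within 2-fold. Among variable gene segments of immunoglobulin heavy and light chains, 111 of 139 expressed were higher in SCAT (79.9%) and 1 in VAT (0.719%).

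Pancreatic acinar genes were on the same side. 21 of 22 expressed genes were higher in SCAT, with summed levels of 15.4 FPKM in VAT, 249.8 in SCAT and 17.4 in BAT. Ctrb1, a chymotrypsinogen, was 1.27 FPKM in VAT and 35.9 in SCAT (-4.72), Cpb1, a carboxypeptidase, was 0.229 in VAT and 13.3 in SCAT (-5.35) and Pnlip, the pancreatic lipase, was 0.4 in VAT and 14.5 in SCAT (-4.87). The acinar regulator Ptf1a and the amylase Amy2a5 were listed at 0 in both, and 0 of 9 islet genes reached 1 FPKM in either depot. Bhlha15, an acinar factor found in other secretory cells as well, was the member within 2-fold (-0.62).

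Genes of the epididymis and of sperm were on the visceral side. The 38 listed genes summed to 4749 FPKM in VAT, 2.48 in SCAT and 0.298 in BAT, and all 23 expressed ones were higher in VAT. Spink8, a protease inhibitor, was 1071 FPKM in VAT and 0.119 in SCAT, the lipocalin Lcn5 was 1119 in VAT and 0.308 in SCAT and Crisp1, a sperm coat protein whose locus also carries Crisp3, was 1386 in VAT and 1.64 in SCAT. Region markers differed within the list: Lcn8, Lcn9 and Cst11 were 0.15 FPKM or less, Gpx5 was 0.481 and Defb38 was 178 and listed at 0 in SCAT. Genes of sperm followed, with 22.9 FPKM in VAT and 0.777 in SCAT for the protamine Prm1 (4.71), 29.4 in VAT and 2.25 in SCAT for the transition protein Tnp2 (3.65) and 8.74 in VAT and 0.0841 in SCAT for the tail protein Odf1 (5.59), which was 0.0402 in VAT on the annotated strand. Svs2, Svs3a and Svs4 of the seminal vesicle were listed at 0 in both depots. Epithelial keratins were in VAT as well, with 14.1 FPKM in VAT and 0.022 in SCAT for Krt8, 22.1 in VAT and 0.0647 in SCAT for Krt18 and 2.48 in VAT for Krt5, which was listed at 0 in SCAT.

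Mesothelial genes marked the VAT library at lower levels. Msln, which encodes mesothelin, was 2.97 FPKM in VAT and 0.0549 in SCAT (4.31), Upk3b, a uroplakin of mesothelium, was 3.13 in VAT and 0.0725 in SCAT (4.23) and Muc16 was 1.92 in VAT and 0.0663 in SCAT (3.60). Krt8, Krt18 and Krt19 of the same list are shared with other epithelia and were higher, up to 22.1 FPKM. Calb2 was 0.0125 FPKM or less, and Ezr, which many cells use, was 12.2 FPKM in VAT and 15.8 in SCAT (-0.37).

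Genes of hepatocytes, muscle and blood were also on the visceral side. The 12 hepatocyte genes had a median log2 ratio of 5.20, led by Apoa2 with 76.2 FPKM in VAT and 1.05 in SCAT (6.06). In VAT, 11 hepatocyte genes with a liver level of 10 FPKM or more stood at a median of 0.672% of that level (range 0.559 to 6.41%), and in SCAT at 0.0124% (0.00922 to 1.48%). Alb, the albumin gene, was listed at 0 in the liver library and was not among the 11. The difference of those medians, multiplied by the liver level of a gene, gave the FPKM by which VAT would exceed SCAT if the gene kept the hepatocyte ratio. For Slc27a2, with 941 FPKM in liver, this was 6.20 against a measured difference of 5.90. It was 38.1% of the measured difference for Akr1c14, 16.3% for Rbp4, 15.5% for Srd5a1, 14.3% for Hp and 11.5% for Col18a1. For the remaining 79 of 85 adipocyte, stroma, vessel and immune genes higher in VAT, it was 10% or less at that median. Single hepatocyte genes reached 6.41% in VAT, and the part of liver RNA in any of these genes was not tested. Muscle genes stood in VAT at a median of 0.162% of the muscle level (0.114 to 5.90%) and in SCAT at 0.0402% (0.0147 to 3.98%), and the same product, at these medians, was at most 3.16% of the difference for those 85 genes. Of 5 red blood cell genes 5 were higher in VAT, 0 after centring on the adipocyte identity list, with 1073 FPKM in VAT and 403 in SCAT for the globin Hbb-bs (1.41).

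Among genes found in all 3 fats and in no list of other tissues, those with the largest ratios on the subcutaneous side were Ms4a4c, Bin2, Sept1, Traf3ip3, Epsti1, Ptprc, Coro1a, Pik3cd, Gm7482 and Inpp4b. Ptprc, the pan-leukocyte protein CD45, was 11.2 FPKM in VAT and 125 in SCAT (-3.47), and Coro1a, an actin regulator of leukocytes, was 8.41 in VAT and 90.4 in SCAT (-3.41). Ms4a4c had the largest ratio, with 1.28 FPKM in VAT and 24.5 in SCAT (-4.15). Gm7482 is a processed pseudogene whose ratio of -3.19 became 0.88 when only loci on its annotated strand were used. On the visceral side they were Usp21, Gk, Hdac6, Acaa1b, Cad, Thrsp, Gamt, Gm14493, Mgp and Mmp12. Usp21 was 63.7 FPKM in VAT and 1.24 in SCAT and 10273 in liver, and the product of liver level and hepatocyte ratio came to 108.6% of its difference, 38.6% of that of Acaa1b and 4.5% or less for the other 8. The part of liver RNA was not tested. Mgp, a matrix inhibitor of calcification, was 105 FPKM in VAT and 11 in SCAT (3.25), and Mmp12, the macrophage elastase, was 20.3 in VAT and 2.07 in SCAT (3.23). Gamt, which makes creatine, was 16 FPKM in VAT and 1.52 in SCAT (3.32), Cad, which starts pyrimidine synthesis, was 23 in VAT and 1.97 in SCAT (3.48) and the peroxisomal thiolase Acaa1b was 12.5 in VAT and 1.02 in SCAT (3.49), with 673 in liver.

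With no list or level in other tissues asked for, the largest ratios in SCAT were those of Ighv7-2, Traj15, Snord49b, Snord65, Gm23113, Gm25698, Gm25827, Ighv1-52, AC124772.1 and Gm24854, of which Ighv1-52 alone was above 0 in VAT (0.343 FPKM). Apart from AC124772.1, which has no annotated type, they are immunoglobulin and T cell receptor segments and small nuclear and nucleolar RNAs, and Ighv7-2 carried 883722 FPKM. In VAT they were Rn7sk, AC226737.1, 2210408I21Rik, Spink8, Spint4, Lcn5, 6820408C15Rik, Spint5, Defb30 and Spink11. Rn7sk, a nuclear RNA that every cell uses, was 25369 FPKM in VAT and listed at 0 in SCAT, so a listed 0 may be a failed estimate.

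The genes of each side were also placed among the 7 tissues by their highest level. Of the 2166 genes higher in VAT, 631 (29.1%) had their highest FPKM of the 7 libraries in VAT, and the others in liver (480), kidney (310), cortex (277), muscle (254) or BAT (214). Of the 1593 genes higher in SCAT, 1202 (75.5%) had their highest FPKM in SCAT. Over all expressed genes VAT was highest for 7.07% and SCAT for 13.2%, and genes chosen as higher in a depot start from an advantage there. The median BAT level of the VAT genes was 1.41 FPKM, between 4.25 in VAT and 0.783 in SCAT, and 45.5% were under 1 FPKM in BAT. The median BAT level of the SCAT genes was 0.568 FPKM, below both 4.15 in SCAT and 0.853 in VAT, and 60.1% were under 1 FPKM in BAT.

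**Figure D5:**
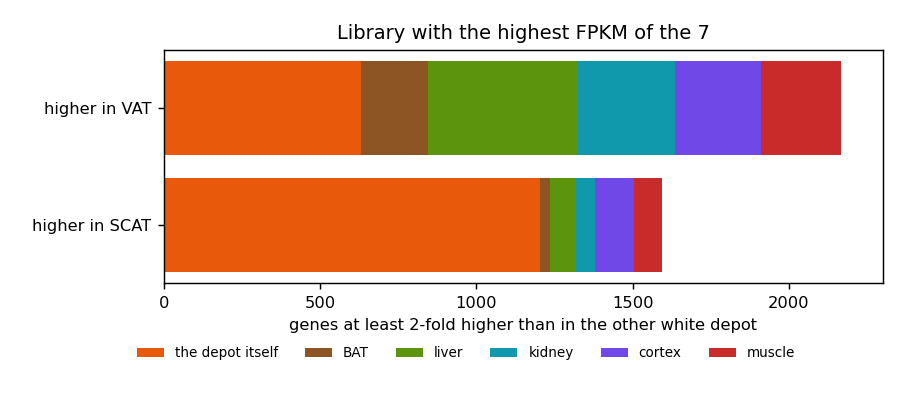
Bars count the genes at least 2-fold higher in each white depot and are divided by the library in which the gene has its highest FPKM of the 7. The orange segment, the depot itself, holds 631 of 2166 genes for VAT and 1202 of 1593 for SCAT.

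Genes marked by brown fat were chosen without the white libraries. With at least 5 FPKM in BAT and 4-fold more than in liver, kidney, cortex and muscle, 189 genes qualified and 164 of them were expressed in a white depot. VAT was higher for 39 (23.8%, against 14.9% of all genes) and SCAT for 5 (3.05%, against 10.9%), with a median log2 ratio of 0.44. Members of the adipocyte identity list such as Adipoq, Lpl, Cidec and Cd36 were among the 39. The set was not recounted after centring on that list. The choice is not one of adipocyte genes alone, since Ttn and the shared locus of Myh4 and Myh8, all muscle genes, were listed at 0 in muscle, and Apoc1 was listed at 0 in liver. Leaving out the 12 expressed genes listed at 0 in a non-fat tissue left 32 of 152 higher in VAT (21.1%) and 5 in SCAT (3.29%). Of the 152 names, 12 shared a locus with another. Among the 5 were Cidea, Sh3kbp1, Tspan18 and Plbd1, which were looked at after their values were seen, with 3.1, 15.6, 3.81 and 27.4 FPKM in SCAT against 0.786, 5.89, 1.4 and 12.5 in VAT. The pentose phosphate genes Pgd and G6pdx, which supply NADPH to lipogenesis, were among the 39, with 16 FPKM in VAT and 5.77 in SCAT for Pgd (1.46) and 34.8 in VAT and 15.1 in SCAT for G6pdx (1.20), and so was Cav1, the caveolae protein, with 127 in VAT and 47.8 in SCAT (1.41). These 3 were also picked after their values were seen.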

How the data were processed

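RNA of 7 mouse tissues was sequenced as rRNA-depleted, strand-specific paired-end libraries. According to the submitters' processing notes and the study's methods, rRNA reads were removed with Bowtie2 2.2.9, reads were aligned to GRCm38 (mm10) with STAR 2.6.0c, and transcripts were assembled, merged and compared with Cufflinks 2.2.1. The authors deposited 1 Cuffdiff table of FPKM values for every tissue pair, without counts, so depth is unknown and no counting interval can be given. Its columns of fold changes, test statistics, p-values, q-values and significance calls, made on single libraries, were not used.

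Names were split at commas, loci that failed in the VAT and SCAT comparison were dropped (105), and each name took its locus with the highest FPKM in either depot. An expressed gene had at least 1 FPKM in either depot, and a 2-fold difference of FPKM + 0.1 was called. The table has no strand column. Its order of loci matched the GENCODE vM21 strand for 99% of 33440 names and was used for 1 alternative. The 31 lists hold 604 genes, of which 601 had a locus and 460 were expressed. The comparison, its members and the lists were chosen with earlier results of these data known.

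The rule allowed any list member to be named, of which the text names a part, and the 10 genes with the largest ratio in each direction at 5 FPKM or more, over all genes and over genes with at least 1 FPKM in VAT, SCAT and BAT outside the lists of lymphocytes, pancreas, epididymis, mesothelium and other tissues. Calculations used Python 3.11.15, pandas 2.3.3 and numpy 2.4.6, were tested on simulated data, and used no statistical test.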

Additional observations from a re-analysis of the deposited data

How the results depend on the processing

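No replicate could be left out and no paired analysis was possible because each depot has 1 library. The main counts of 2166 genes higher in VAT and 1593 in SCAT became 941 and 763 at 4-fold, 996 and 718 with at least 5 FPKM, and 4226 and 2588 with no minimum. Scaling to the same sum over the named genes gave 12895 and 194, since short immunoglobulin segments reached 1819430 FPKM in SCAT (Ighv5-12-4), and turned the mast cell and granulocyte list to a median of 0.96. The remaining settings but the last group were chosen after seeing the data. Centring on the adipocyte identity list gave 1005 and 5542 and left 11 of the lists with a positive median, against 22. Protein-coding genes alone gave 1826 and 1052, scaling to their sum gave 1543 and 2326, and loci on the annotated strand gave 1789 and 1296 and turned Gm7482 to 0.88. Leaving out genes listed at 0 in a non-fat tissue took 39 of 164 brown-fat-marked genes higher in VAT to 32 of 152. At 4-fold, the share of depot genes with that depot highest of the 7 rose to 44.4% for VAT and 87.8% for SCAT. Of the settings planned, pseudocounts of 1 and 0.01, centring on genes of both depots, summed loci, the highest locus over 7 tissues, loci of several names left out and status OK alone kept both counts within 1.5 times. A pseudocount of 1 moved 182 of 495 single ratios by over 1.5-fold, Tbx15, Shox2, Wt1 and Tcf21 among them, none changing sign. It took more listed genes under 2-fold than are named here. Among them were Aqp7, Gpam, Hilpda, Hk2, Hoxa9, Hoxa10, Inhba, Lhx8, Osr1, Sfrp2, Srd5a1, Wnt5b, Bmper, Metrnl, Sfrp4, Tgfb2 and Thbs2.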

Other observations

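A listed 0 was uneven between the libraries. Of the expressed genes, 176 were listed at 0 in SCAT and 48 in VAT, and of the table's genomic intervals, unnamed ones included, 284 at 1 FPKM or more in VAT were at 0 in SCAT, against 45 the other way. By annotated type, antisense genes had equal counts of 74 higher in VAT and 74 in SCAT of 510 expressed, and long intergenic RNAs had 40 and 40 of 230, while protein-coding genes had 15.2% and 8.73%, against 14.9% and 10.9% of all genes.

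Nerve genes were few and divided, with 1 of 4 expressed higher in VAT and 2 in SCAT. Ncmap, a myelin protein gene, was 0.742 FPKM in VAT and listed at 0 in SCAT. Pmel, a melanocyte gene, was 1.66 FPKM in VAT and 7.17 in SCAT, but its locus also carries Pym1, a gene of RNA surveillance found in every cell. Tnnt3, a fast muscle troponin, was the muscle gene higher in SCAT, with 29 in VAT and 70.2 in SCAT, and its locus also carries Lsp1, which encodes a leukocyte protein, while the other expressed muscle genes were higher in VAT apart from Mb, which was within 2-fold.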
